A study of Caenorhabditis elegans with 9 samples.

Results

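Worms exposed to 0.03% (w/v) sodium arsenite, the high dose of this study, were compared with unexposed worms across all genes that the array measures, and by families and pathways. The comparison rested on 6 of the 9 arrays of the series, 3 high dose and 3 control arrays, and the remaining 3 arrays came from worms at 0.003%, the low dose. All groups were wild type (N2) Caenorhabditis elegans kept for 6 h at 22 °C in CeHM, a liquid medium without bacteria, and the control worms had no arsenite. The RNA came from whole worms and was read on Affymetrix C. elegans arrays, with 1 sample per array. The sources differ on the stage, since the labels give L3 larvae, the methods L1 and the results text L4. The labels call the 3 samples of each group biological replicates, and by the methods each had its own RNA isolation. Separate cultures are not stated, so how much of the culture to culture variation the p-values take in is unknown.

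Sodium arsenite delivers trivalent arsenic, which binds neighbouring thiol groups in proteins and thereby disturbs enzymes and protein folding. Cells are known to answer such damage with chaperones, with the proteasome, which degrades proteins tagged with ubiquitin, and with autophagy, which encloses cargo in membranes and delivers it to lysosomes. Thiol stress also draws on cysteine and glutathione. In the worm the intestine stores fat and carries out much of this metabolism, while the hypodermis secretes the cuticle.

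Each of 17118 genes was represented by 1 probeset on the authors' log2 scale, on which a difference of 1 is a 2 fold change. Array medians lay between 8.42 and 8.52, arrays of 1 group correlated across genes at 0.940 to 0.952, and high dose arrays correlated with control arrays at 0.910 to 0.924. The 18 hybridization spike probesets (bioB, bioC, bioD and cre) moved by -0.17 to 0.07 between control and high dose. Other bacterial control probesets varied more, from -1.19 (ThrX-5) to 0.79 (LysX-M), and r2-Bs-thr-5 had -0.90 (limma adjusted p = 0.0158). Sperm genes were bright in these control worms labelled L3, with means of 13.12 to 15.95 for 23 major sperm protein genes, and the 5 vitellogenin genes, which encode yolk proteins, had means of 10.14 to 13.01. A gene was called dim where the lower of its high dose and control means was under 6.26, the level below which 25% of genes lay.

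A gene was called where its adjusted p in limma was 0.05 or less and it had moved by 1.2 fold or more. By this rule the high dose up regulated 1540 genes (9% of all tested) and down regulated 1878 (11%). Among the increases 109 reached 8 fold, as did 44 of the decreases. Over all genes the median log2 fold change was -0.05. The arrays of the high dose and control groups did not overlap for 38.4% of genes. In the gene lists below every called member was among these genes, so a lack of overlap in a called gene is no separate evidence. In the same limma model 7.34% of all genes were higher and 9.49% lower at the high than at the low dose, and these included 1003 of the up regulated and 1332 of the down regulated genes. The low dose itself differed from control in 1.55% of genes, and both comparisons with control share the control arrays. The comparisons of the high dose with control and with the low dose likewise share the high dose arrays. A gene that passed in both is therefore not supported by independent tests. The share of calls rose with signal: 2.19% of the dimmest 20% of genes were up and 1.84% down regulated, against 16.5% and 22.8% of the brightest 20%, which had mean levels of 10.69 to 15.90. Down regulated genes made up 15.3% of 2360 genes on chromosome X and 9.26% to 12.2% of the genes on each autosome. Of 6718 genes that carry only a sequence name, 568 were up and 685 down regulated.

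**Figure D1:**
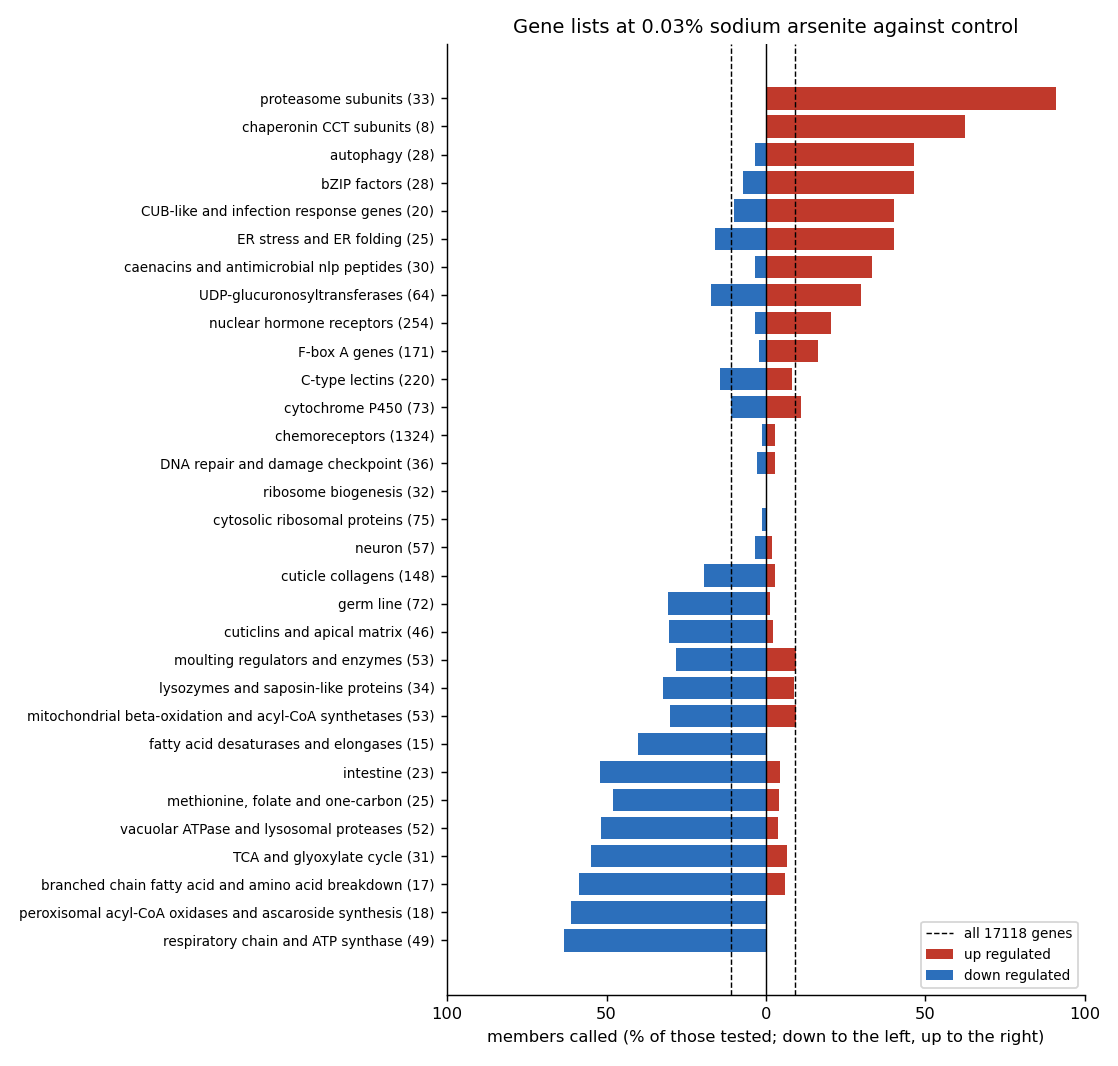
Share of gene lists that was up regulated (red, to the right) or down regulated (blue, to the left) at 0.03% sodium arsenite against control by limma. Values are percent of the members tested, whose number stands in parentheses. The lists are a selection from 69. Some lists with changes in both directions, such as osmolyte genes (40% up, 35% down), are not shown. Dashed lines mark the shares over all 17118 genes, 9% up and 11% down. Proteasome subunits reach 90.9% up and the respiratory chain 63.3% down.

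The proteasome moved almost as a whole. Of its 33 subunits measured, 30 were up regulated and 0 down regulated, with a median log2 fold change of 0.71 over the list. All 14 subunits of the 20S core, which cuts proteins, were up regulated (log2 fold changes of 0.39 to 1.24), as were 16 of 19 subunits of the 19S regulator, which receives and unfolds tagged proteins (0.66 to 1.17). The median control level of the list was 13.10, within the range of the brightest 20%, of which 16.5% were up regulated.

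The ubiquitin receptor gene rpn-13 read 12.21, 12.04 and 12.08 in the control arrays and 13.30, 13.35 and 13.19 in the high dose arrays, a log2 fold change of 1.17 (SE 0.12, limma adjusted p = 0.000528). The core subunit gene pas-7 read 11.65, 11.67 and 11.18 against 12.76, 12.93 and 12.54, with a log2 fold change of 1.24 (SE 0.17). The groups did not overlap for either gene, and each changed little more than 2 fold. The 3 largest changes also included rpn-2, a scaffold of the regulator (1.03, SE 0.12). The movement was broad and small, since 4 subunits passed a 2 fold threshold. Of the 30 subunits, 14 were also higher than at the low dose by limma.

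Genes of ubiquitin ligases and of the handling of tagged proteins moved in part. The segregase genes cdc-48.1 and cdc-48.2, whose product pulls tagged proteins out of complexes and membranes, had log2 fold changes of 0.79 and 0.62 (SE 0.10 and 0.11), and its partners npl-4.1, npl-4.2 and ufd-1 had 1.05, 0.91 and 0.72. Of 25 Skp1-related and cullin genes, parts of ubiquitin ligases, 5 were up regulated and 0 down regulated, among them cul-6 (1.10) and skr-3 (1.05), and 20 were not called. The F-box proteins choose the targets of these ligases. Among 171 genes of the F-box A family 28 were up and 4 down regulated and 139 not called, the largest increases coming from dim signals. When the dimmer 50% of genes were removed from the fit 13 rose, and without control replicate 3 the 4 decreases were 2. The BTB and MATH domain adaptors, of another kind of ligase, had 1 of 56 genes up and 3 down regulated. Of 3 ubiquitin conjugating enzyme genes 0 were called by limma or without moderation of the variance, and 0 had an unadjusted p under 0.05. The list was matched by symbol and held these 3 alone, so it says little about the family.

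The F-box gene mfb-1, related to the mammalian muscle atrophy ligase subunit atrogin-1, changed far more. It read 8.57, 8.22 and 7.77 in the control, 9.39, 8.49 and 8.86 in the low dose and 12.79, 13.01 and 12.75 in the high dose arrays. The high dose arrays stood apart from all others, while control and low dose arrays overlapped. Its increase was 4.66 on the log2 scale (SE 0.28, limma adjusted p = 3.77e-05), or 25.3 fold.

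Autophagy genes rose at several steps of the pathway. Of 28 measured, 13 were up regulated and 1 was down regulated, with a median log2 fold change of 0.70, and 12 of the 13 also exceeded the low dose by limma. The cargo receptor gene sqst-1, the worm p62, read 12.05, 12.15 and 11.96 in the control arrays and 14.44, 14.52 and 14.75 in the high dose arrays (2.52, SE 0.14, limma adjusted p = 2.65e-05). The beclin gene bec-1, part of the lipid kinase complex that starts the membrane, read 10.65, 10.58 and 10.59 against 12.79, 12.85 and 12.90 (2.24, SE 0.10). In both genes the groups were separated by more than 2 log2 units.

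Other members covered initiation, membrane growth and the Atg8 proteins that coat it. The initiation genes epg-9 (the worm ATG101) and atg-13 rose by log2 fold changes of 2.12 and 1.19, the lipid kinase gene vps-34 by 0.76, and the membrane growth genes atg-2 and atg-18 by 1.88 and 1.29. The Atg8 genes lgg-1 and lgg-2 rose by 1.05 and 1.95. The member that fell was sqst-2, a relative of sqst-1, at 10.52, 10.81 and 10.34 in the control and 9.48, 9.35 and 9.17 in the high dose arrays, a log2 fold change of -1.22. The probesets of sqst-1, bec-1 and lgg-1 are marked _x_at or _s_at, which may detect related transcripts. Among 34 genes of the vps class, named for protein sorting to the vacuole, 7 were up and 1 was down regulated, led by vps-32.1 (2.30) and vps-4 (1.24), both of the ESCRT machinery that bends and cuts membranes.

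**Figure D2:**
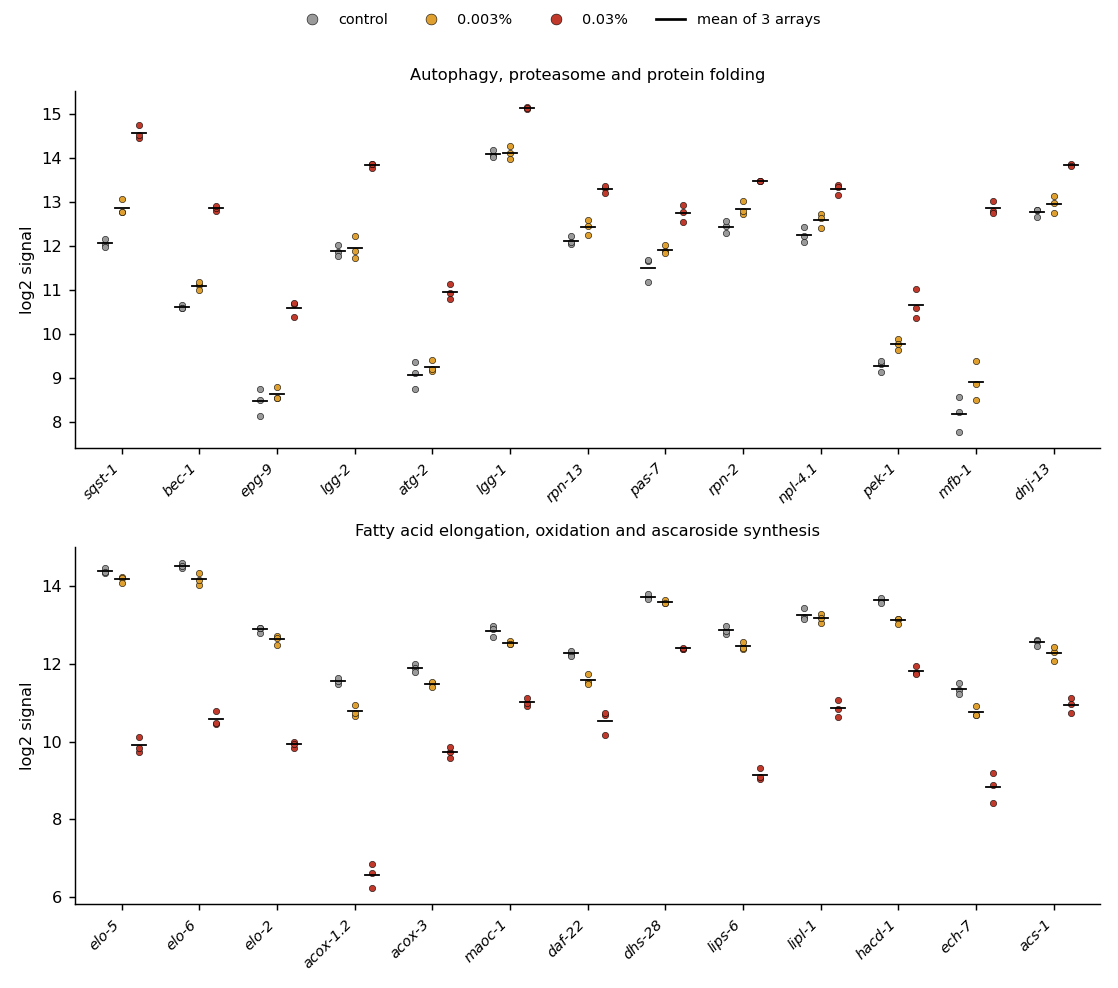
Log2 signal on each of the 3 control, 3 low dose (0.003%) and 3 high dose (0.03%) arrays for genes of protein turnover (top) and of fatty acid metabolism (bottom), with a bar at each group mean. The high dose arrays of every gene shown lie outside its control range, above it in the top panel and below it in the bottom panel.

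Chaperonin genes also increased. The CCT chaperonin folds actin and tubulin, and 5 of its 8 measured subunit genes were up regulated, with log2 fold changes of 0.70 to 0.96, and 0 were down regulated. The gene cct-2 read 12.54, 12.46 and 12.40 in the control arrays and 13.24, 13.39 and 13.41 in the high dose arrays, with no overlap (0.88, SE 0.11). The DnaJ cochaperones had 4 of 29 genes up and 4 down regulated, shares of 13.8% each that were near those of all genes. The 4 decreases were 2 without control replicate 1 or 3 or high dose replicate 3, and the largest increase was that of dnj-13 (1.08, SE 0.12).

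Genes of the endoplasmic reticulum moved in both directions. Of 25 genes of this list 10 were up and 4 down regulated, the 4 being 2 without high dose replicate 1 or control replicate 2. The 10 include the cdc-48, npl-4 and ufd-1 genes already given. The kinase gene pek-1, the worm PERK, which slows translation when unfolded proteins accumulate, read 9.32, 9.39 and 9.12 in the control and 10.59, 10.35 and 11.01 in the high dose arrays (1.37, SE 0.18, limma adjusted p = 0.0017). The transcription factor gene atf-4 rose by 1.19, xbp-1 by 0.63 and the chaperone gene cnx-1, for calnexin, by 0.69. Of the BiP chaperone genes hsp-4 rose by 0.39, while hsp-3 went from 13.01, 12.90 and 13.13 to 12.30, 12.34 and 12.57 (-0.61, SE 0.12, limma adjusted p = 0.00973). The disulfide isomerase genes pdi-1, pdi-2 and pdi-6, which form the bonds between cysteines, had log2 fold changes of -0.51, -0.88 and -0.62.

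The channel through which secreted proteins enter this compartment, looked up after its values were seen, fell in every measured part. The 3 SEC61 genes sec-61.A, sec-61.B and sec-61.G had log2 fold changes of -1.11, -1.07 and -0.68, and the 4 translocon-associated protein genes trap-1, trap-2, trap-3 and trap-4 had -1.02, -1.44, -1.53 and -1.22. The level of trap-2 was 14.40, 14.45 and 14.29 in the control arrays, 14.45, 14.35 and 14.31 at the low dose and 12.98, 12.89 and 12.95 at the high dose. Control and low dose arrays overlapped and the high dose arrays lay below both (limma adjusted p = 0.000145 for high against low dose). All 7 genes were lower than at the low dose. The class of sec genes had 6 of 19 members down and 0 up regulated, and that of cyclophilins, which help proteins fold around proline, had 5 of 15 down and 0 up, with cyn-6 at -1.52.

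Many transcription factors were up regulated. Among 28 genes of the bZIP list 13 were up and 2 down regulated, with a median of 0.58, and 11 of the 13 were also higher than at the low dose. The gene zip-10 read 10.13, 10.18 and 10.25 in the control and 11.87, 12.07 and 12.03 in the high dose arrays (1.80, SE 0.15, limma adjusted p = 0.000174), and zip-9 had a log2 fold change of 1.77 (SE 0.15). Both partners of the AP-1 dimer rose by a similar amount, jun-1 from 9.98 ± 0.06 (SD, n = 3) to 11.17 ± 0.04 and fos-1 from 10.48, 10.15 and 10.47 to 11.62, 11.74 and 11.20. No high dose array of these genes overlapped with a control array. The mitochondrial stress factor gene atfs-1 rose by 0.98 (SE 0.21) and skn-1, the worm Nrf factor of oxidative stress, by 0.87 (SE 0.25, limma adjusted p = 0.0473). The 2 that fell were zip-11 (-0.78) and zip-12 (-0.75), and 1 fell without any 1 of the control arrays or of high dose replicates 1 and 3.

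Nuclear hormone receptors, a large family of ligand-responsive factors in worms, followed. Of 254 measured, 52 were up regulated, or 20.5%, and 9 were down regulated, and 38 of the 52 were also higher than at the low dose. The largest increase was that of nhr-17, which read 7.17, 6.46 and 6.16 in the control, 8.11, 8.69 and 7.33 in the low dose and 11.93, 12.37 and 12.29 in the high dose arrays (5.60, SE 0.39, limma adjusted p = 7.61e-05). The receptor gene nhr-182 went from 7.91, 8.66 and 8.83 to 12.14, 12.17 and 12.02 (3.64, SE 0.23). Both were apart from control by more than 3 log2 units on every array. The genes nhr-228 and nhr-12 rose by 2.41 and 2.33. Decreases were fewer, and their count was 5 without control replicate 1 or without high dose replicate 1. They included nhr-80 (-0.64), a regulator of fatty acid desaturation, and nhr-114, whose values of 7.55, 7.79 and 5.62 in the high dose arrays were widely spread.

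The forkhead factor gene pha-4, known for specifying the pharynx, read 8.41, 8.59 and 8.29 in the control arrays, 8.86, 8.58 and 8.54 at the low dose and 10.51, 10.54 and 10.72 at the high dose (2.16, SE 0.14, limma adjusted p = 5.31e-05). It was the sole increase among 18 pharynx genes, of which 1 fell. Of 87 bHLH, homeobox and GATA genes, many of them developmental factors, 3 were up and 7 down regulated. Their median control level was 7.11, and 3.97% of genes with mean levels of 5.79 to 7.70 were up and 4% down regulated. These 7 became 4 when any 1 control array or high dose replicate 3 was omitted.

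Genes of several secreted peptide families and of infection responses were up regulated. Of 30 caenacin, fungus-induced (fipr), antibacterial factor (abf) and antimicrobial nlp genes, 10 were up and 1 was down regulated, with a median of 0.35. The largest of these was fipr-26, at 7.58, 7.30 and 7.77 in the control and 12.32, 12.23 and 11.87 in the high dose arrays (4.59, SE 0.21, limma adjusted p = 1.21e-05). The caenacin gene cnc-4 read 10.08, 10.01 and 10.07 against 13.85, 13.96 and 13.81, while cnc-3 fell by 0.85 on the log2 scale. By family, 2 of 8 caenacins, 2 of 8 fipr genes and 6 of 9 nlp genes were up regulated, the 6 by 0.50 to 2.34. Of these nlp genes nlp-28, nlp-29, nlp-30 and nlp-31 were read on _x_at probesets, which may detect related transcripts.

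The list of CUB-like and infection response genes had 8 of 20 members up and 2 down regulated, 4 up when the dimmer 50% of genes were removed, and 1 down without any 1 of the control or high dose arrays. Besides dod-17, which rose 29.2 fold, it held irg-2 (6.31, 7.13 and 7.33 in the control, 9.64, 9.81 and 10.21 in the high dose arrays) and cld-9 (9.51, 9.11 and 9.29 against 11.51, 11.63 and 11.62). The groups were fully separated in both. The invertebrate lysozyme gene ilys-3 fell by 1.17 on the log2 scale. The pals genes, known from the response to intracellular pathogens, had 0 of 23 members called in either direction by limma, with 3 at an unadjusted p under 0.05 and 1 called without moderation of the variance.

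Lectins, lysozymes and saposin-like proteins bind or break microbial surfaces. Of 220 C-type lectin genes 18 were up and 32 down regulated, shares of 8.18% and 14.5% that were near those of all genes. They were above those of genes with mean levels of 5.79 to 7.70 (3.97% up and 4% down), where the family's median control level of 6.45 lay. The gene clec-74 rose from 7.25, 7.65 and 7.46 to 11.79, 11.86 and 11.81 (4.36, SE 0.14), and clec-56 fell from 11.22, 11.11 and 11.32 to 7.57, 8.01 and 7.85 (-3.41, SE 0.15, limma adjusted p = 1.05e-05). Changes of more than 10 fold thus occurred in both directions within the family. Of 34 lysozyme and saposin-like genes 3 were up and 11 (32.4%) down regulated, led by spp-23 (-2.92) and spp-4 (-2.05), with lys-8 (0.70) and ilys-4 (1.38) among the increases.

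Genes changed in neighbouring runs. Ordered along the chromosomes, 7 runs of at least 4 adjacent measured genes were all up regulated (31 genes) and 13 were all down regulated (55 genes). Neighbours can share sequence, so an _x_at or _s_at probeset of 1 copy may read another. The longest run held nspe-4, nspe-3, nspe-1, Y38E10A.14, nspe-7 and nspe-5 on chromosome II, of which 5 belong to the nematode specific peptide family, group E, whose function is not known. The level of nspe-3 was 6.14, 6.49 and 7.53 in the control, 9.33, 8.75 and 8.13 in the low dose and 13.43, 13.53 and 13.60 in the high dose arrays, which made it the largest increase among genes that were not dim (6.80, SE 0.41). For nspe-4 the values were 7.65, 7.85 and 7.48, then 9.03, 9.23 and 8.75, then 12.67, 12.94 and 12.63. The 3 groups did not overlap in either gene, and all 5 nspe genes were higher than at the low dose by limma. The nspe-7 and nspe-5 signals were dim in control worms. The probesets of nspe-4, nspe-3, nspe-7 and nspe-5 are marked _x_at, and that of nspe-1 is not.

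Another run on chromosome V was made of nlp-31, nlp-30, nlp-29 and nlp-28, which encode antimicrobial peptides of the skin. All of these were read on _x_at probesets, so the signal of 1 copy may come in part from another. The level of nlp-29, widely used as a reporter of wounding and fungal infection, went from 10.60, 10.62 and 10.24 in the control and 10.63, 11.09 and 10.65 in the low dose arrays to 12.79, 13.04 and 12.67 (2.34, SE 0.18, limma adjusted p = 0.000137). The low dose arrays lay just above control and the high dose arrays lay above both. The others rose by 1.25 to 1.69. A run of F55G11.2, F55G11.3, mbug-1, dod-17 and K10D11.2 on chromosome IV joined the infection response genes, with mbug-1 at 9.52 in the control and 12.29 in the high dose mean. In contrast to the cluster of nlp genes, F55G11.2 was already 13.55, 13.42 and 13.27 at the low dose.

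Down regulated runs included clec-57, clec-227, clec-56 and clec-54 on chromosome V (clec-57 from a mean of 9.19 to 7.99, the others by -3.05, -3.41 and -2.56, clec-54 being dim) and gst-26, gst-27, gst-28 and gst-29 on chromosome II. The gst genes encode glutathione S-transferases, a class in which increases prevailed, so this block went the other way, with gst-26 at 11.90 in the control and 9.21 in the high dose mean. The lipocalin-related genes lpr-3, lpr-6, lpr-5 and lpr-4 on chromosome X, whose products line the outer surface of epithelia, fell together by 1.23, 1.82, 1.18 and 2.10 on the log2 scale. The run of W07B8.4, cpr-5, cpr-8, cutl-22 and cmd-1 on chromosome V held the cathepsin B-like protease genes cpr-5 and cpr-8, with log2 fold changes of -2.01 and -1.43.

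**Figure D3:**
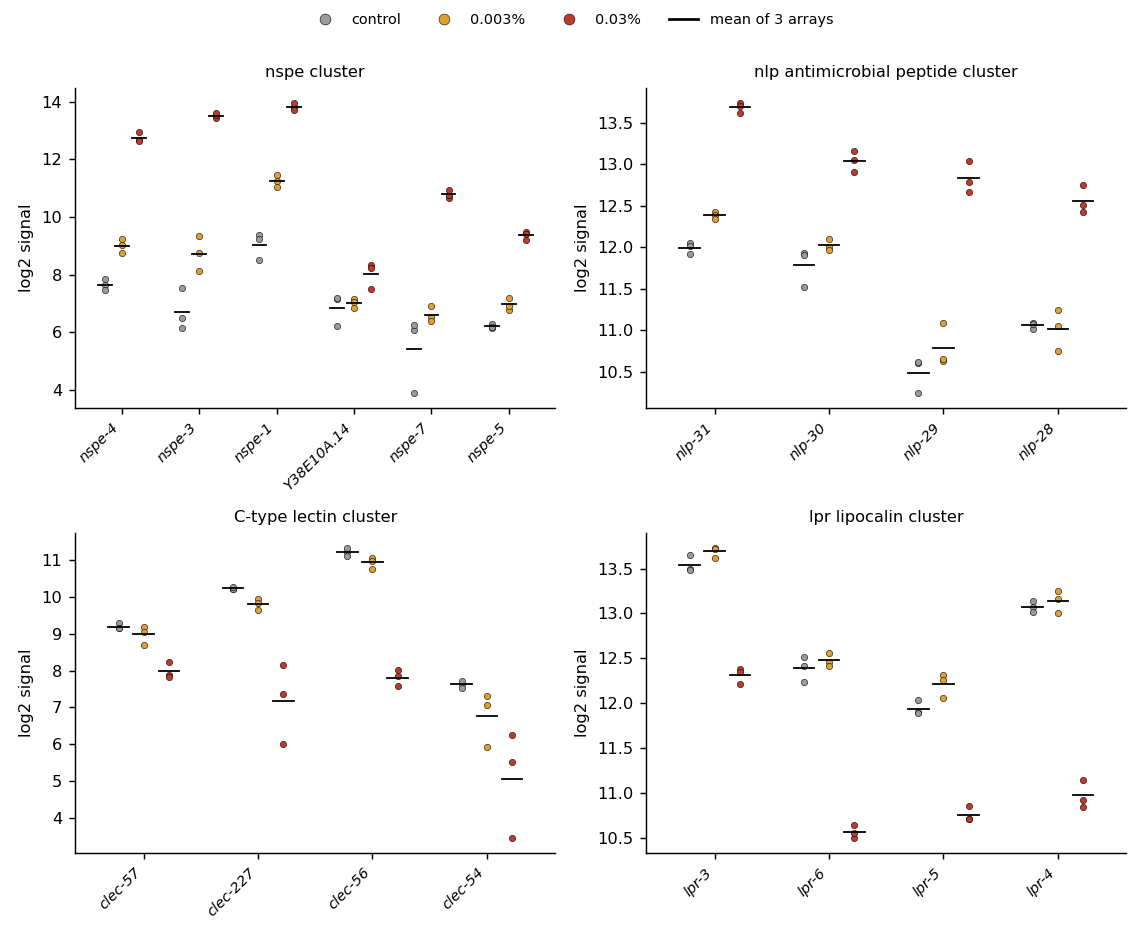
Log2 signal on each of the 9 arrays for 4 runs of adjacent genes, with control arrays in grey, low dose (0.003%) in orange and high dose (0.03%) in red, and a bar at each group mean. The nspe and nlp runs are higher and the C-type lectin and lpr runs lower at the high dose, the largest difference being that of nspe-3 at 6.80 log2 units.

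Fatty acid elongation fell while desaturation did not pass the test. Of 8 elongase genes 6 were down regulated, and of 7 desaturase genes 0 were called by limma, with log2 fold changes of -0.27 to 0.22 (1 at an unadjusted p under 0.05, and 0 in an analysis of variance without moderation). The genes elo-5 and elo-6 make branched chain fatty acids that worms need for growth. The level of elo-6 was 14.46, 14.58 and 14.51 in the control, 14.02, 14.15 and 14.34 at the low dose and 10.44, 10.79 and 10.48 at the high dose (-3.95, SE 0.14, limma adjusted p = 3.59e-06), and elo-2, which lengthens palmitate, went from 12.89 ± 0.08 (SD, n = 3) to 9.93 ± 0.08 (-2.96, SE 0.11). Neither gene overlapped between any pair of groups. The synthetase gene acs-1, which acts with elo-5 and elo-6 in branched chain fatty acid supply, fell by 1.61 on the log2 scale. The stearoyl desaturase gene fat-6 read 13.57, 13.72 and 13.71 in the control and 13.89, 13.93 and 13.85 in the high dose arrays, 0.22 apart (SE 0.12, limma adjusted p = 0.251).

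Peroxisomal oxidation, which shortens the side chains of the ascaroside pheromones, was down regulated at each of its 4 steps. Of 18 genes of this list 11 fell and 0 rose, with a median of -0.78, and 9 of the 11 were also lower than at the low dose. All 5 acyl-CoA oxidase genes measured, for the initial step, were down regulated, including acox-3 (11.99, 11.90 and 11.80 in the control, 9.58, 9.73 and 9.85 in the high dose arrays) and acox-1.1 (-2.10, SE 0.21). The hydratase gene maoc-1 read 12.96, 12.89 and 12.69 against 10.92, 10.98 and 11.13 (-1.84, SE 0.11), the dehydrogenase gene dhs-28 13.71, 13.66 and 13.78 against 12.39, 12.38 and 12.41 (-1.32, SE 0.09), and the thiolase gene daf-22 12.25, 12.21 and 12.34 against 10.16, 10.69 and 10.73 (-1.74, SE 0.17, limma adjusted p = 0.000433). None of these 4 steps had a high dose array within the control range.

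Mitochondrial fatty acid oxidation and acyl-CoA synthetases had 16 of 53 genes down and 5 up regulated. The largest decreases were ech-7 (-2.51, SE 0.20) and ech-9 (-1.92), of the enoyl-CoA hydratase family, and cpt-6 (-1.90), of the carnitine palmitoyl transferase family, while acdh-2, an acyl-CoA dehydrogenase gene, rose by 2.37. Lipases and fatty acid binding proteins had 10 of 37 genes down and 4 up regulated, the 10 being 6 without control replicate 1 or 2 and the 4 being 2 without high dose replicate 1 or control replicate 3. The lysosomal lipase gene lipl-1 read 13.43, 13.20 and 13.15 in the control and 10.64, 11.07 and 10.84 in the high dose arrays (-2.41, SE 0.15), and lips-6, a lipase-related gene, 12.77, 12.84 and 12.97 against 9.03, 9.31 and 9.09 (-3.72, SE 0.12). Both were at or near their control level at the low dose, with differences of -0.09 and -0.42 that did not pass the test. The breakdown of branched chain amino acids and propionate had 10 of 17 genes down regulated, by 0.60 to 0.93 on the log2 scale, and 1 up, the aminotransferase gene bcat-1 (1.30).

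Genes of central energy metabolism fell by smaller amounts. Of 31 genes of the TCA and glyoxylate cycles 17 were down and 2 up regulated, with a median of -0.56, and 16 of the 17 were lower than at the low dose by limma. The aconitase gene aco-1 read 11.95, 12.08 and 12.09 in the control and 10.65, 10.62 and 11.06 in the high dose arrays (-1.26, SE 0.15, limma adjusted p = 0.000939), and the succinate dehydrogenase gene sdha-1 had a log2 fold change of -1.04 (SE 0.16). The 2 increases were icl-1 (0.53), the glyoxylate cycle enzyme, and pdhk-2 (0.64), a kinase that inhibits pyruvate dehydrogenase, and 1 rose without any 1 of the control arrays or of high dose replicates 1 and 3. Gluconeogenesis and glycolysis had 9 of 21 genes down and 1 up regulated. The largest decreases were those of the gluconeogenic genes pck-1, from 12.97, 12.92 and 12.74 to 10.63, 10.88 and 11.10 (-2.01, SE 0.15), and fbp-1, from 13.01 ± 0.04 (SD, n = 3) to 11.50 ± 0.15 (-1.51, SE 0.12). Neither overlapped with control.

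The respiratory chain was down regulated in 31 of 49 genes and up regulated in 0, with a median of -0.43. By complex, 13 of 15 genes of complex I fell (by 0.39 to 1.09 on the log2 scale), 7 of 13 of cytochrome c oxidase (0.37 to 0.54) and 6 of 10 of ATP synthase (0.38 to 0.78). The complex I gene gas-1 read 12.91, 12.62 and 12.70 in the control and 11.51, 11.85 and 11.61 in the high dose arrays (-1.09, SE 0.13, limma adjusted p = 0.00102). These genes were bright, with a median control level of 13.55, and 22.8% of the brightest 20% were down regulated. The count of decreases was 16, 15 and 18 without control replicates 1, 2 and 3 and 17, 20 and 16 without high dose replicates 1, 2 and 3, and 20 when only the control and high dose arrays were fitted.

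**Figure D4:**
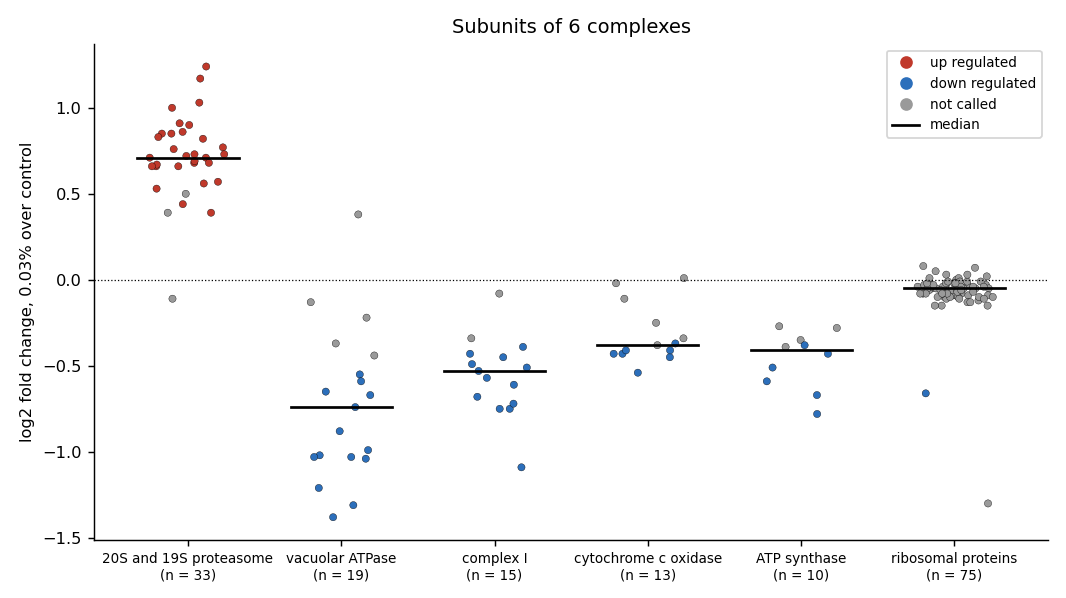
Log2 fold change of each subunit gene at 0.03% sodium arsenite over control for 6 complexes, coloured by the limma call, with a bar at the median and the number of genes under each name. Proteasome genes lie mostly above 0 (30 of 33 up), vacuolar ATPase and respiratory genes below 0, and cytosolic ribosomal protein genes near 0 (median -0.05).

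The vacuolar ATPase, the proton pump that acidifies lysosomes, was down regulated in 14 of its 19 genes and up regulated in 0. The peripheral subunit gene vha-12 read 13.90, 13.66 and 13.82 in the control, 13.86, 13.53 and 13.66 in the low dose and 12.48, 12.35 and 12.42 in the high dose arrays (-1.38, SE 0.12, limma adjusted p = 0.000263), and vha-11 had a log2 fold change of -1.31 (SE 0.17). Control and low dose arrays overlapped, and 12 of the 14 genes were lower than at the low dose. Among the 5 not called was unc-32 (0.38, SE 0.12), the membrane subunit known from neurons. As a symbol class, vha had the largest share down regulated, 77.8%, of the 113 classes with at least 15 genes.

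Lysosomal protease genes fell in part. Of 8 cathepsin B-like genes 6 were down regulated, led by cpr-4, at 14.47, 14.55 and 14.55 in the control, 13.79, 13.55 and 13.46 in the low dose and 12.12, 11.83 and 11.62 in the high dose arrays (-2.67, SE 0.16, limma adjusted p = 3.62e-05), and cpr-5 (-2.01, SE 0.12). The 3 groups were ordered without overlap for cpr-4. The cathepsin L gene cpl-1 rose by 0.68 (SE 0.13), and of 15 aspartyl protease genes 3 were down and 1 was up regulated. These were asp-13 (-1.36), asp-17 (-0.62), asp-8 (-0.54) and asp-14 (0.71), while asp-1 and asp-3 had log2 fold changes of -0.13 and -0.12 that did not pass the test. Lysosomal membrane genes lmp-1 and lmp-2 fell by 0.46 and 1.25 on the log2 scale.

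The values of 1-carbon metabolism, which supplies methyl groups and nucleotides, were lower in 12 of 25 genes by limma and higher in 1. All 4 measured genes of the glycine cleavage system fell, gcsh-1 from 10.93, 10.89 and 11.06 to 8.05, 8.39 and 8.39 (-2.68, SE 0.20, limma adjusted p = 0.000111), and gldc-1, gcsh-2 and gcst-1 by 1.36, 1.30 and 1.15 on the log2 scale. The folate gene dao-3, related to mitochondrial MTHFD enzymes, read 13.53, 13.53 and 13.46 against 11.18, 11.13 and 11.18 (-2.35, SE 0.10). The high dose arrays of both genes were well below control. The phosphatidylcholine genes pmt-2, pcyt-1 and cept-1 had log2 fold changes of -1.35, -1.56 and -1.97, while sams-1, which makes the methyl donor, rose by 0.75 (SE 0.20, limma adjusted p = 0.0367). All 12 decreases were also below the low dose.

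Genes of purine metabolism differed in direction. The bifunctional enzyme gene atic-1, which completes purine synthesis and was among the 20 largest decreases, fell from 13.36, 13.25 and 13.31 to 12.59, 12.41 and 12.53 at the low dose and 9.50, 9.71 and 9.45 at the high dose (-3.75, SE 0.11, limma adjusted p = 2.36e-06). The salvage gene hprt-1 went from 13.37, 13.32 and 13.23 to 10.78, 10.96 and 10.77 (-2.47, SE 0.13). Both were separated from control on all high dose arrays, whereas the adenylosuccinate synthetase gene adss-1 rose by 0.80 (SE 0.17). Purine salvage genes like hprt-1 often serve as references, and among 14 reference genes 4 were down and 0 up regulated, the others of the 4 being gpd-2 (-0.45), tba-1 (-0.39) and tbb-1 (-0.34). The 4 were 1 without control replicate 1 or 2 and 2 without any other 1 array of the 3 groups.

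Sulfur metabolism moved in both directions, with 4 of 21 genes up and 8 down regulated. Among genes leading to glutathione 2 of the increases were cth-2, a cystathionine lyase gene, from 13.25, 13.27 and 13.22 to 15.24, 15.39 and 15.14 (2.00, SE 0.18) and gss-1, the glutathione synthetase gene, from 11.33, 11.39 and 11.33 to 13.32, 13.30 and 13.07 (1.88, SE 0.13). The sulfide quinone oxidoreductase gene sqrd-1 fell from 11.55, 11.70 and 11.77 to 9.23, 9.11 and 9.08 (-2.53, SE 0.11, limma adjusted p = 1.02e-05). The increases and the decreases were each seen on every high dose array. The largest decrease of all genes that were not dim was that of rips-1, named for a link to the sulfide regulator gene rhy-1, at 13.56, 13.57 and 13.52 in the control, 12.21, 12.54 and 12.15 in the low dose and 7.92, 7.94 and 8.46 in the high dose arrays (-5.45, SE 0.18, or 43.6 fold lower). The gene rhy-1 itself had a log2 fold change of -0.68, and cth-1, the relative of cth-2, had -0.91.

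Metal and solute transport genes moved in both directions. Among 49 genes of the metal list 8 were up and 11 down regulated. The ABC transporter gene hmt-1, known for heavy metal tolerance, rose from 9.91, 9.99 and 10.34 to 13.20, 13.02 and 13.33 (3.10, SE 0.15, limma adjusted p = 1.49e-05), with 11.08 ± 0.08 (SD, n = 3) at the low dose. Exporter genes mrp-1 and cua-1, the latter a copper pump, had log2 fold changes of 1.93 and 1.71, and cdr-4, of a cadmium-responsive family, had 3.30. The metallothionein gene mtl-2 fell from 15.40, 15.46 and 15.51 to 13.31, 13.21 and 13.45 (-2.13, SE 0.11). The aquaglyceroporin gene aqp-1, of the channel family that passes glycerol and in other organisms arsenite, fell from 11.74, 11.88 and 11.65 to 9.66, 9.37 and 9.56, while aqp-11 rose by 1.61 (SE 0.18). None of these genes overlapped with control.

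Haem and osmolyte genes were likewise mixed. Of 11 haem transport genes 2 rose, 1 without high dose replicate 2 or control replicate 3, and 5 fell. The gene hrg-3, whose secreted product carries haem from the intestine to other tissues, had values of 3.60, 2.68 and 2.06 in the control, 3.59, 4.57 and 4.27 in the low dose and 7.41, 7.62 and 7.36 in the high dose arrays, so that its 25.7 fold change rested on a dim control signal. The related hrg-11.3 and hrg-11.4 had log2 fold changes of -1.35 and -1.93. Of 20 osmolyte genes 8 rose and 7 fell, the former count being 4 without high dose replicate 1 or 2 and 5 without control replicate 1 or 3, the latter 4 without control replicate 2. The largest of the 8 increases was that of nlp-29 (2.34), which was also counted among the antimicrobial nlp genes. The inositol transporter gene hmit-1.1 fell from 9.87, 9.75 and 9.61 to 6.86, 6.66 and 6.38 after a low dose level of 10.15, 10.67 and 10.43, and gpdh-1, of glycerol synthesis, had a log2 fold change of -1.40, while the trehalose synthase genes tps-1 and tps-2 had 0.98 and 1.11.

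Enzymes that modify foreign compounds changed in both directions. Of 64 UDP-glucuronosyltransferase genes 19 were up and 11 down regulated. The gene ugt-13 read 7.59, 7.67 and 7.79 in the control, 10.34, 10.76 and 10.32 at the low dose and 10.91, 11.12 and 10.94 at the high dose (3.30, SE 0.15), and ugt-6 had a log2 fold change of -2.10. Both doses were above control for ugt-13, and the difference between them of 0.52 did not pass the test (limma adjusted p = 0.0543). Cytochrome P450 genes had 8 of 73 up and 8 down regulated, shares near those of all genes, with cyp-14A5 at 2.07 (SE 0.13) and cyp-25A2 at -2.44. The latter count was 4 without control replicate 1 and 3 without control replicate 3. The P450 genes had a median control level of 7.23, and of genes with mean levels of 5.79 to 7.70 fewer were called, 3.97% up and 4% down. Short-chain, alcohol and aldehyde dehydrogenases had 7 of 50 up and 16 down regulated, and ABC transporters 11 of 55 up and 9 down, the 9 being 5 without control replicate 1.

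Thiol repair genes also moved in both directions. Of 24 thioredoxin and glutaredoxin genes 4 rose (16.7%) and 3 fell (12.5%), against 9% and 11% of all genes. The methionine sulfoxide reductase gene msra-1 went from 11.32, 11.48 and 11.20 to 14.03, 13.97 and 13.80 at the low and 15.36, 15.23 and 15.29 at the high dose (3.96, SE 0.12, limma adjusted p = 2.36e-06), and glrx-10, a glutaredoxin gene, rose by 2.22 (SE 0.18). Glutathione reductase gene gsr-1 rose by 1.54 (SE 0.11). The order of the 3 groups was the same for msra-1 and gsr-1, without overlap.

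Among other symbol classes with a high share of increases, hsp had 52.4%, gst 50%, ugt 29.7%, slc 28.1% and ptr 20.8% up regulated. In the same order 9.52%, 17.5%, 17.2%, 18.8% and 16.7% were down regulated, against 11% of all genes. The median log2 fold changes of slc and ptr were -0.15 and -0.13. The slc class of solute carriers was led by slc-17.5 (1.64) and slc-5A12 (1.31). The acyltransferase class oac, which modifies unknown substrates in worms, had 9 of 52 members up and 2 down regulated. The gene oac-14 read 7.03, 7.03 and 7.48 in the control, 6.76, 7.40 and 7.04 in the low dose and 11.53, 11.45 and 11.98 in the high dose arrays (4.47, SE 0.23, limma adjusted p = 2.09e-05), and oac-31 rose by 4.13. Control and low dose overlapped for oac-14. After vha, the classes with the largest shares down regulated were dhs (36.7%), cyn and spp (33.3% each) and sec (31.6%). Of these, dhs also had 20% and spp 5.56% up regulated, against 9% of all genes, and cyn and sec had 0.

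Cuticle and apical matrix genes were down regulated in part. Of 148 collagen genes 29 were down (19.6%) and 4 up regulated and 115 not called. Their median control level was 11.92, and 22.8% of the brightest 20% of genes were down regulated. At the low dose 9 collagen genes were below control, 24 were lower and 15 higher at the high than at the low dose, and 50 were below control at the high dose with a variance trend and robust estimation. The furrow collagen genes dpy-2 and dpy-7 read 12.06, 12.17 and 12.08 against 10.49, 10.20 and 10.24 (-1.79, SE 0.13) and 12.43 ± 0.22 (SD, n = 3) against 10.96 ± 0.38 (-1.47, SE 0.21). Neither overlapped with control, and at the low dose they were 0.14 and 0.16 above it, which did not pass the test. Cuticlin and apical matrix genes had 14 of 46 down and 1 up regulated, and 8 down without control replicate 1, with lpr-4 at 13.14, 13.07 and 13.02 against 11.15, 10.85 and 10.93 (-2.10, SE 0.12, limma adjusted p = 3.71e-05) and the fibrillin-related fbn-1 at -1.79. Of the moulting list 15 of 53 genes were down and 5 up regulated. The largest decrease was that of mlt-10, from 11.98, 11.56 and 11.78 to 9.19, 9.98 and 9.93 (-2.07, SE 0.24). All 15 were below the low dose as well, and the 5 increases, all in the patched-related ptr genes, became 2 or 3 without any 1 of the control or high dose arrays or of low dose replicates 2 and 3.

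Of 24 insulin-like genes 2 rose and 3 fell, shares of 8.33% and 12.5% that were near those of all genes, and 5 fell without high dose replicate 3. Their median control level was 7.67, and 3.97% of genes with mean levels of 5.79 to 7.70 were up and 4% down regulated. The gene ins-11 went from 8.27, 8.74 and 8.50 to 11.36, 11.54 and 11.41 (2.94, SE 0.16, limma adjusted p = 2.51e-05), and ins-33 from 10.12, 10.22 and 10.21 to 8.25, 7.84 and 7.77 (-2.23, SE 0.16). At the low dose ins-11 lay at 8.94, 8.78 and 8.57 and ins-33 at 10.13, 10.41 and 10.10, both overlapping with control. Of 76 FMRFamide-like and other neuropeptide genes 7 were up regulated (9.21%, near the 9% of all genes) and 1 was down regulated (1.32%). In this list 3 were up without any 1 of high dose replicates 1 and 2 and control replicates 1, 2 and 3. Transthyretin-related genes had 7 of 40 up and 8 down regulated, the 8 being 5 without control replicate 2 or 3, with ttr-23 at 2.60.

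Cytosolic ribosomal protein genes were almost all not called. Of 75 measured 0 were up and 1, rpl-41.1 (-0.66), was down regulated, although these genes are bright. Ribosome biogenesis had 0 of 32 genes called by limma (4 at an unadjusted p under 0.05, and 2 called without moderation of the variance), and translation factors 0 up and 3 of 40 down, the 3 being 1 without low dose replicate 3, high dose replicate 1 or 3 or control replicate 1. Splicing factors had 2 up and 4 of 46 down. Their 4 decreases were 0 to 2 without any 1 of the control arrays or of high dose replicates 1 and 3, and their 2 increases 0 or 1 without any 1 of the control or high dose arrays or low dose replicate 2. Mitochondrial ribosomal proteins had 2 of 59 up and 9 (15.3%) down regulated, the 2 being 1 without high dose replicate 2 or control replicate 2 and the 9 being 4 and 5 without high dose replicates 1 and 3, 3, 3 and 5 without control replicates 1, 2 and 3, and 5 without low dose replicate 3. The median control level of these mitochondrial genes was 11.34. Of genes with mean levels of 10.69 to 15.90, 16.5% were up and 22.8% down regulated. DNA repair genes had 1 of 36 up and 1 down regulated. Of 1324 chemoreceptor genes, most of them weakly detected, 37 were up (2.79%) and 18 down regulated (1.36%). Their median control level was 5.22, and 2.19% of genes with mean levels of 0.88 to 5.79 were up and 1.84% down regulated. The 37 became 21, 23 and 24 without high dose replicates 1 and 3 and control replicate 2, the 18 became 10 without control replicate 3, and 6 and 5 were called when the dimmer 50% of genes were removed.

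Some tissue marker lists were lower at the high dose and others were not, and in RNA from whole worms fewer cells of a type cannot be told apart from less RNA per cell. Of 23 intestine genes 12 were down and 1 was up regulated, and their summed level on the log2 scale was 17.91 to 17.99 in the control, 17.74 to 17.85 in the low dose and 17.05 to 17.14 in the high dose arrays. Within the list, the brush border actin gene act-5 fell by 1.44 on the log2 scale. The factor gene elt-2 (0.72, limma adjusted p = 0.0918), the esterase gene ges-1 (-0.29) and the filament gene ifb-2 (0.07) did not pass the test, and elt-7 rose by 0.92. The fat, lysosome and metal genes above are largely expressed in this tissue, some of them (cpr-1, mtl-1, mtl-2 and vha-6) stand in its list, and the part of the intestine in their decrease was not tested.

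Muscle genes had 13 of 39 members down and 1 up regulated, led by unc-95, a gene of the muscle attachment complex, from 10.73, 10.78 and 10.82 to 8.58, 7.91 and 8.48 (-2.45, SE 0.18, limma adjusted p = 1.0e-04). Their summed level was 18.50 to 18.62 in the control, 18.44 to 18.54 in the low dose and 18.20 to 18.31 in the high dose arrays. Hypodermis genes had 7 of 23 down and 0 up regulated, 4 down without control replicate 2, with summed levels of 16.13 to 16.32 in the control, 16.21 to 16.45 at the low and 15.70 to 15.82 at the high dose. In both lists low dose and control arrays overlapped, and the part of this tissue in the decrease of cuticle genes was not tested. Neuron genes had 2 of 57 down, 1 without control replicate 1 or 3, and 1 up regulated, and their summed levels of 15.81 to 15.83 in the control and 15.83 to 15.99 in the high dose arrays met at their edges.

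Germ line genes had 22 of 72 members down and 1 up regulated, and 14 down without control replicate 1, control replicate 2 or high dose replicate 1. The oocyte and eggshell genes chs-1 (-1.06), puf-5 (-1.02) and rme-2 (-0.91) were among them. Of 77 cell cycle and replication genes 13 (16.9%) were down regulated, among them the ribonucleotide reductase gene rnr-1 (-0.88). In this list 4 were up regulated, including cdc-48.1 and cdc-48.2 given above. Its median control level was 10.44, and 14.1% of genes with mean levels of 9.26 to 10.69 were down regulated. The 13 became 7 without high dose replicate 1 or control replicate 3 and 5 without control replicate 2. Sperm genes had 6 of 73 down regulated, 2 without high dose replicate 1 and 3 without any 1 control array, and 0 of the 23 major sperm protein genes were called by limma (14 at an unadjusted p under 0.05, and 8 called without moderation of the variance). All 23 had log2 fold changes below 0, with a median of -0.27. The summed level of germ line genes was 17.45 to 17.56 in the control, 17.11 to 17.24 in the low dose and 17.02 to 17.16 in the high dose arrays, so both doses lay below control and overlapped with each other. The summed level of sperm genes was 19.83 to 19.86 in the control, 19.50 to 19.58 in the low dose and 19.53 to 19.61 in the high dose arrays. Here too both doses lay below control and overlapped.

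**Figure D5:**
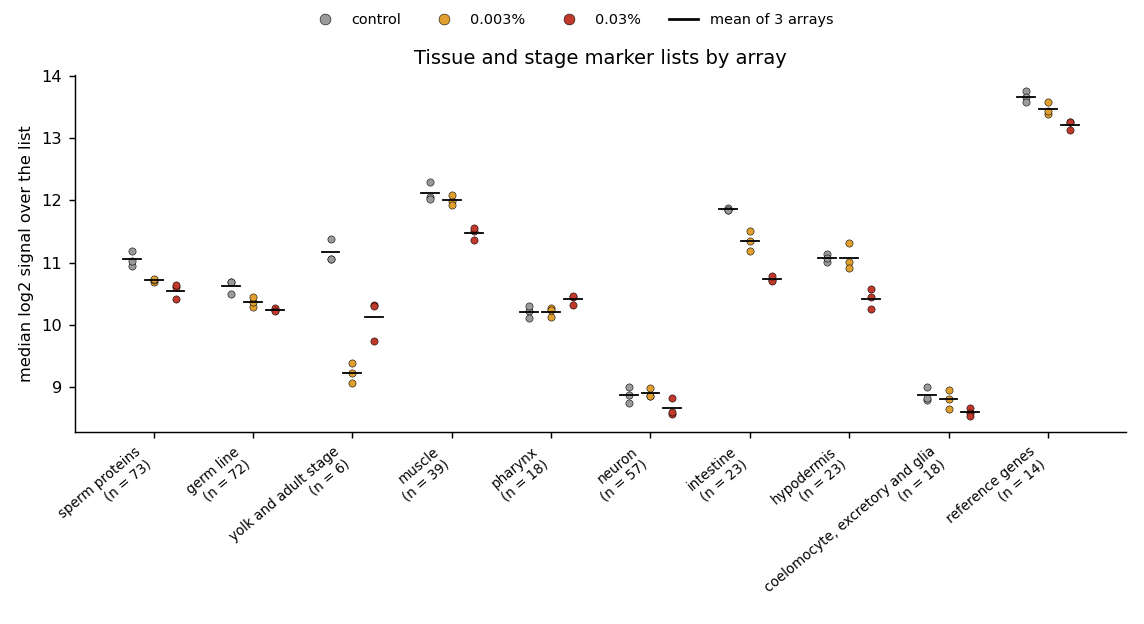
Median log2 signal over each tissue or stage marker list on each of the 3 control (grey), 3 low dose (orange) and 3 high dose (red) arrays, with a bar at the group mean and the number of genes under each name. The intestine list falls from 11.84 to 11.87 in control to 10.70 to 10.78 at the high dose, while the pharynx list lies between 10.11 and 10.47 on all arrays.

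Yolk genes were lower at both doses. Of 6 genes of yolk and adult stage 5 were down regulated at the high dose, 2 without high dose replicate 1 or control replicate 2 and 3 without control replicate 3. The level of vit-6 was 12.85, 13.18 and 12.99 in the control, 11.28, 11.73 and 11.17 at the low dose and 12.07, 12.26 and 12.31 at the high dose. The high dose arrays thus lay between the other groups, 0.80 below control (SE 0.18) and 0.82 above the low dose (limma adjusted p = 0.0178). The gene vit-2 was in the same order, at -0.65 from control, which did not pass the test, and 1.31 above the low dose, which did.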

How the data were processed

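The deposited values are log2 signals, 1 per probeset and array. The authors' methods name RMA in Partek, while the submitters' processing notes name Partek 6.4 and MAS5, and which was used for these values is not settled. Of 22625 probesets, 20766 were assigned to 1 gene. Those that are controls (77), have no gene (895) or have several (887) were left out, and the brightest probeset on average represented each gene. Names and gene order came from RefSeq (WBcel235). The 3 groups were fitted in one model with limma 3.58.1 in R 4.3.3 (lmFit, eBayes, 6 residual and 1.45 prior degrees of freedom), with Benjamini-Hochberg adjustment over 17118 genes. Thresholds were 0.05 on the adjusted p and 1.2 fold. Members and the 69 gene lists were chosen with earlier results of these data known. The ABC transporter list was corrected after it had taken in ribosomal proteins. Named genes were the 20 largest increases and 20 largest decreases that were not dim and did not overlap, the 3 largest of each list in each direction, the 2 leading members of the 5 symbol classes with the highest shares, and members of runs. Not all of these are described, and genes named outside this rule were chosen after their values were seen. The fit was tested on simulated data. Precision is limited by 3 arrays per group. Alternatives were other normalizations, filters, variance models, a replicate block and each array left out. Promoter motifs were not analysed here.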

Additional observations from a re-analysis of the deposited data

Results flagged for a closer look

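Probesets outside the gene tests also changed at the high dose in limma. Of 895 probesets without a gene, 33 were up and 29 down regulated (6.93%), and of 887 assigned to several genes, 60 were up and 69 down regulated (14.5%). Of 77 control probesets, some of which read worm genes such as ubiquitin (1.10 to 1.69), 7 were up and 10 down regulated (22.1%).

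In 6 genes the high dose and low dose calls had opposite directions against the shared control arrays, and limma's test of high against low dose passed in each. The cysteine synthase-like gene cysl-2 was 13.45, 13.38 and 13.36 in the control, 14.18, 14.28 and 14.05 at the low dose and 11.67, 11.88 and 12.08 at the high dose, a high minus low difference of -2.30. The ABC transporter gene pgp-1 differed by -2.18, ZK742.3 by -2.48 and D1054.8 by -1.50. F17E9.4 and ZK669.3 ran the other way, by 1.84 and 2.21.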

How the results depend on the processing

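With a 2 fold threshold 856 genes were up and 730 down regulated against control, and 635 were higher and 653 lower than at the low dose. With 1 array left out the counts were 1163 to 1551 up, 1274 to 1829 down, 840 to 1131 higher and 1194 to 1410 lower. Deviations from the group mean in same-numbered high dose and control samples had correlations of 0.01, 0.02 and 0.03. Differently numbered samples and the low dose were not compared, so whether the numbers pair the samples is not settled. With the replicate number as a block 1331 genes were up and 1515 down regulated, of which 1274 and 1467 were shared with the fit without it, and 1037 were higher and 1308 lower than at the low dose. Under the remaining alternatives the 4 counts stayed within 1.5 times. Of 402 genes named by the rule or lying in runs, 246 kept their call under every alternative and 0 changed direction under any. Counts within some lists moved by over 1.5 times. With the block 19 respiratory chain genes fell in place of 31, and with a variance trend and robust estimation 26 sperm, 17 mitochondrial ribosomal and 50 collagen genes fell in place of 6, 9 and 29. With the dimmer 50% of genes removed 34 germ line and 20 cell cycle genes fell in place of 22 and 13. Dim genes and 3 arrays per group limit what could be detected. The planned promoter motif counts were not run, since no promoter sequences were used here.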
